A study of Homo sapiens with 6 samples.

Results

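The serine synthesis and folate enzymes described here were 9 genes taken by name, PHGDH, PSAT1, PSPH, SHMT1, SHMT2, MTHFD1, MTHFD1L, MTHFS and SLC25A32, out of 25071 genes in the deposited count table. All 9 were found by their Ensembl identifiers and all 9 passed the filter on low counts. RNA-seq libraries came from PLC/PRF/5, an established human hepatoma cell line that carries integrated hepatitis B virus DNA. In 3 libraries the cells had been given a control vector, and in the other 3 a plasmid expressing ARD1, the N-terminal acetyltransferase subunit whose gene is NAA10. All were harvested 48 hours after transfection, and the study's title links ARD1 to glutathione synthesis and to escape from ferroptosis, an iron-dependent cell death. Transfection was into 1 cell line, so the comparison holds for these cultures only, and whether the 3 libraries of each group were separate cultures is not stated in the labels.

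Serine is made from the glycolytic intermediate phosphoglycerate in 3 steps, catalysed in turn by PHGDH, PSAT1 and PSPH. Serine hydroxymethyltransferase then moves a carbon from serine onto tetrahydrofolate and leaves glycine, which cells also need for glutathione. The reaction runs in mitochondria (SHMT2) and in the cytosol (SHMT1), and the folate-bound carbon is carried on by parallel sets of enzymes. The mitochondrial arm releases formate through MTHFD1L, and the cytosolic enzyme MTHFD1 uses formate for the synthesis of purines, thymidylate and methionine. Many of these genes, among them PHGDH, PSAT1, PSPH, SHMT2 and MTHFD1L, are known targets of the stress-activated transcription factor ATF4.

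The 250 bases before the transcription start of 5 genes are shown because 2 of these genes rose (PSAT1 and PHGDH), 3 fell (SHMT1, MTHFD1 and MTHFD1L) and these are the windows in which sequence motifs could be compared with those directions. They are printed 5′ to 3′ along the gene from RefSeq (GRCh38.p14), at chr9:78296875-78297124 (PSAT1), chr1:119711684-119711933 (PHGDH), chr17:18363551-18363800 (SHMT1, minus strand), chr14:64388103-64388352 (MTHFD1) and chr6:150866236-150866485 (MTHFD1L), on the plus strand except where stated. Capitals mark the core of the ATF4 composite element, TGATGNAA, and the E-box CACGTG bound by MYC family factors.
PSAT1: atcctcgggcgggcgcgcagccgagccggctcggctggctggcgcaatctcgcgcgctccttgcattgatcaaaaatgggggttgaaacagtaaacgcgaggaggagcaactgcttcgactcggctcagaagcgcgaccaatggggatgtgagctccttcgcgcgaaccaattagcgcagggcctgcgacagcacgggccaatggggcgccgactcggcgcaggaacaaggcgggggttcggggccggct
PHGDH: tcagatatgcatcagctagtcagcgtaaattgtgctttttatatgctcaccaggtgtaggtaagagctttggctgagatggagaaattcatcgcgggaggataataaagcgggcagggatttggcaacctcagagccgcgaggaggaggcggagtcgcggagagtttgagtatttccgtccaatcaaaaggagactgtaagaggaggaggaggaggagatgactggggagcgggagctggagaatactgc
SHMT1: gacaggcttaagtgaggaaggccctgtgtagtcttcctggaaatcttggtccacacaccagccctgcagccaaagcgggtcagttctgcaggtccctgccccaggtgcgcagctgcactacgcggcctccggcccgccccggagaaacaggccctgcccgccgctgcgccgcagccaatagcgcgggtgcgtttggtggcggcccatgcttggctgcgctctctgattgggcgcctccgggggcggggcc
MTHFD1: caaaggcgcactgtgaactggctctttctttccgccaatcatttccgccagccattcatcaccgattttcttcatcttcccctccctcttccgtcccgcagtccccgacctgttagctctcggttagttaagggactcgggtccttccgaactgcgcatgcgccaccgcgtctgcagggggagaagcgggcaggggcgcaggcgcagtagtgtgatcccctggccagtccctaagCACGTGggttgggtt
MTHFD1L: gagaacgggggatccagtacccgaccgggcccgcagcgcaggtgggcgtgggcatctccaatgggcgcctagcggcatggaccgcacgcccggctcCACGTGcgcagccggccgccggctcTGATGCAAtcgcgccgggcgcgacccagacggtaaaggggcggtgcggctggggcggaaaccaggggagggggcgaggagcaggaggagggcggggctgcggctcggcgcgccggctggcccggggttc
Both strands were searched for these motifs and for the antioxidant response element core TGACNNNGC, over the 300-base windows from 250 bases before to 50 after each start. The MTHFD1L window held TGATGCAA beginning 129 bases before the start and CACGTG beginning 154 bases before it. MTHFD1L has 4 listed starts, and the 3 whose windows overlap held the same pair. The MTHFD1 window held CACGTG beginning 15 bases before the start, and the PSAT1, PHGDH, SHMT1 and MTHFS windows held none of the 3 motifs. Of all 35116 windows, 3.62% held TGATGNAA, 7.26% CACGTG and 13.3% TGACNNNGC. PSPH, SHMT2 and SLC25A32 are named only.

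The libraries held between 21857327 and 25011357 counts, and 3 counts corresponded to 0.112 to 0.143 CPM (CPM are counts scaled to a common library size with factors from TMM, the trimmed mean of log ratios between libraries). Counts of control replicate 1 differed most within a group: chi-square over its degrees of freedom was 15.9 and 18.5 against the other controls, and 2.44 to 4.09 for the remaining pairs of a group. The transfected gene NAA10 stood at 32.2 to 36.2 CPM in the controls and at 294 to 400.2 CPM in the ARD1 libraries. Of 10 hepatocyte and hepatoma markers, 3 were higher and 6 lower, with a summed level of 3284 to 4091 CPM in the controls and 1918 to 1993 CPM in the ARD1 libraries, and APOA1 had 2 to 9 counts in each library. KRT8 (2423 and 1561 CPM) made up most of that sum. Albumin (ALB) averaged 315 CPM in the controls and 36.3 CPM with ARD1, and transferrin (TF) 161 and 17.3 CPM. The 3 that were higher were HNF4A (34.98 and 41.46 CPM), APOB (6.17 and 7.73 CPM) and SERPINA1 (0.535 and 2.17 CPM). Of 9 markers of immune, endothelial, stromal and other epithelial cells, 2 were higher and 4 lower. The 9 summed to 152 to 164 and 74.5 to 78.8 CPM, and CD3E, CD68 and EPCAM had at most 13 counts in each library. In the test described below, 32.4% of all tested genes were higher and 32.2% lower. Individual markers were picked out after the values were seen. The endothelial cadherin CDH5 averaged 33.1 CPM in the controls and 0.0677 CPM, below the floor, in the ARD1 libraries. COL3A1 averaged 28.2 and 1.03 CPM, and LUM 59.8 and 14.8 CPM. The 2 that were higher were COL1A1, stromal like COL3A1 and LUM (0.565 and 1.67 CPM), and PECAM1 (32.7 and 57.7 CPM). The part of all these markers in the results below was not tested. In bulk RNA fewer cells of a type and less RNA per cell cannot be told apart. Whether both groups were the same culture of PLC/PRF/5 apart from the plasmid could not be settled from these libraries, so a difference between cultures and one due to the plasmid cannot be told apart in any value below.

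The serine synthesis and folate genes moved in both directions. In edgeR's quasi-likelihood test over all genes, PSAT1 and PHGDH rose, SHMT2, MTHFD1, SHMT1 and MTHFD1L fell, and PSPH, MTHFS and SLC25A32 did not pass an adjusted p of 0.05. These 6 of 9 calls compare with 64.6% of 15816 tested genes, so the share called was near the background. Of all tested genes 32.4% were called higher and 32.2% lower. The median log2 fold change of the 9 genes was -0.11, and that of all tested genes was 0.03. With library totals in place of TMM factors the median of all genes moved to 0.30 and the 9 genes split into 3 higher and 3 lower, so the directions below are relative to TMM scaling.

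**Figure D1:**
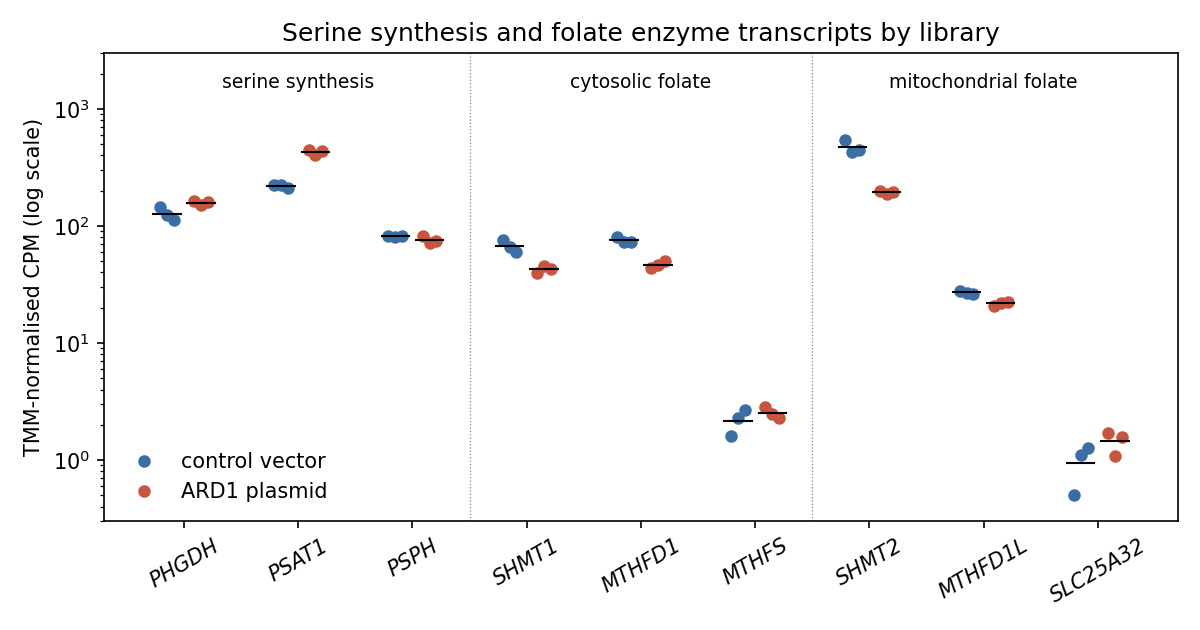
TMM-normalised CPM on a log axis for the 9 genes in each of the 6 libraries, grouped by pathway step, with a black bar at each group's mean. PSAT1 lies higher and SHMT2 lower in all 3 ARD1 libraries than in any control, and MTHFS and SLC25A32 lie below 3 CPM with overlapping groups.

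PSAT1, the phosphoserine aminotransferase that takes its amino group from glutamate, had the largest rise of the 9 genes. PSAT1 (ENSG00000135069, chr9:78297143-78330093) measured 223, 226 and 210.3 CPM with the control vector and 446, 406 and 440.03 CPM with the ARD1 plasmid. Positions of this and the other genes are those of GENCODE 29 on GRCh38. The groups did not overlap, as was the case for 69.6% of all tested genes, and the lowest ARD1 library lay well above the highest control. The difference was 1.96-fold (log2 fold change 0.97, SE 0.0688, edgeR adjusted p = 1.46e-08), and over the 16 alternatives it ranged from 0.91 to 1.24. Its place was percentile 89.5 of the fold changes of all tested genes.

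PHGDH, the dehydrogenase that commits phosphoglycerate to serine, rose by less. PHGDH (ENSG00000092621, chr1:119648411-119744226) stood at 145, 124 and 113 CPM in the controls and at 164, 150.3 and 160.2 CPM in the ARD1 libraries. The groups did not overlap, and control replicate 1 came closest to the ARD1 libraries. The log2 fold change was 0.32 (SE 0.0871, edgeR adjusted p = 0.00522). Without control replicate 3 it was 0.21 and did not pass (adjusted p = 0.0648; 2.18e-08 to 0.0648 across alternatives), and with library totals it was 0.58.

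PSPH, the phosphatase that releases free serine, did not pass the test. PSPH (ENSG00000146733, chr7:56011051-56051604, minus strand) stood at 82.7, 79.9 and 81.7 CPM in the controls and at 81.7, 71.0 and 74.4 CPM in the ARD1 libraries. The highest ARD1 library lay among the controls and the other two lay below them. The log2 fold change was -0.11 with a 95% interval of -0.27 to 0.05 (edgeR adjusted p = 0.230), and its sign turned with library totals (0.16, adjusted p = 0.0638; 0.0638 to 0.778 across alternatives). Along the pathway, the count ratio of PSAT1 to PHGDH within a library was 1.74 ± 0.175 in the controls and 2.72 ± 0.0235 in the ARD1 libraries (SD, n = 3). The ratio of PSAT1 to PSPH was 2.698 ± 0.124 and 5.70 ± 0.232. Both ratios were higher in each ARD1 library than in any control, and a ratio within a library does not depend on its scaling. The names table lists 4 pseudogenes of PSAT1 and 1 of PSPH, and how the counting treated reads shared with them is not given in the sources used here.

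SHMT2, the mitochondrial hydroxymethyltransferase, had the largest fall of the 9 genes. SHMT2 (ENSG00000182199, chr12:57229327-57234935) measured 539.6, 428 and 443 CPM in the controls and 200.2, 188 and 193 CPM in the ARD1 libraries. The groups did not overlap, the ARD1 libraries lay close together and control replicate 1 was the highest library. The difference was 2.43-fold downward (log2 fold change -1.28, SE 0.0859, edgeR adjusted p = 7.97e-09), at percentile 8.50 of all tested genes, and without control replicate 1 it was -1.18. After correction for GC content and length it was -0.998, and the transcript is the most GC-rich of the 9 (57.0%, against 40.2% to 52.6% for the others). Of SHMT2 exon bases, 9.51% overlap others on the opposite strand, those of NDUFA4L2 among them.

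MTHFD1L, the mitochondrial synthetase that frees formate, was lower by a small amount. MTHFD1L (ENSG00000120254, chr6:150865549-151101887) stood at 28.0, 26.8 and 26.3 CPM in the controls and at 20.8, 21.9 and 22.6 CPM in the ARD1 libraries. Every ARD1 library lay below every control. The log2 fold change was -0.31 (SE 0.0874, edgeR adjusted p = 0.00570). With library totals it was -0.05 and did not pass (adjusted p = 0.625; 0.00159 to 0.625 across alternatives), and after correction for GC content and length it was -0.20. Among the 6 genes with a promoter window, MTHFD1L alone held the ATF4 element core, as did 4.46% of all genes with windows. A link between that match and its level was not tested.

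SLC25A32, the carrier that brings folate into mitochondria, was counted at the edge of detection. SLC25A32 (ENSG00000164933, chr8:103398635-103415189, minus strand) had 11, 23 and 28 counts in the controls and 41, 29 and 39 in the ARD1 libraries, or 0.5004, 1.09 and 1.26 CPM and 1.72, 1.09 and 1.57 CPM. ARD1 replicate 2 lay among the controls. The log2 fold change was 0.61 with a 95% interval of -0.13 to 1.35 (edgeR adjusted p = 0.135). Without control replicate 1 it was 0.29, and with library totals it was 0.87 and passed (adjusted p = 0.0465; 0.0465 to 0.452 across alternatives). In GENCODE 29, 69.7% of its exon bases are shared on the same strand with AC012213.5, a gene not analysed here, so its counts are uncertain.

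The cytosolic enzymes SHMT1 and MTHFD1 both fell. SHMT1, the cytosolic hydroxymethyltransferase (ENSG00000176974, chr17:18327860-18363563, minus strand), stood at 76.5, 66.1 and 60.3 CPM in the controls and at 39.5, 45.8 and 42.9 CPM in the ARD1 libraries. MTHFD1, which joins formate to tetrahydrofolate and interconverts the folate-bound carbon (ENSG00000100714, chr14:64388031-64463457), stood at 80.5, 72.3 and 72.6 CPM in the controls and at 43.4, 46.4 and 50.03 CPM in the ARD1 libraries. For both genes every ARD1 library lay below every control. The log2 fold changes were -0.66 for SHMT1 (SE 0.0944, edgeR adjusted p = 2.26e-05) and -0.69 for MTHFD1 (SE 0.0812, adjusted p = 3.27e-06). With library totals they were -0.39 and -0.42, after correction for GC content and length -0.49 and -0.77, and both still passed. The difference between these 2 genes was not tested. Of MTHFD1 exon bases, 11.04% overlap others on the opposite strand, ZBTB25 among them, and the names table lists 1 pseudogene each for SHMT1 and MTHFD1.

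MTHFS, which returns formyl-tetrahydrofolate to the active folate pool, was low in all libraries. MTHFS (ENSG00000136371, chr15:79833585-79897379, minus strand) stood at 1.59, 2.28 and 2.65 CPM in the controls and at 2.85, 2.47 and 2.30 CPM in the ARD1 libraries. The groups overlapped. The log2 fold change was 0.22 with a 95% interval of -0.27 to 0.71 (edgeR adjusted p = 0.414), and without control replicate 1 it was 0.03. On its strand 34.0% of its exon bases are shared with the readthrough gene ST20-MTHFS, which had 3 counts in the controls and 1 in the ARD1 libraries.

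**Figure D2:**
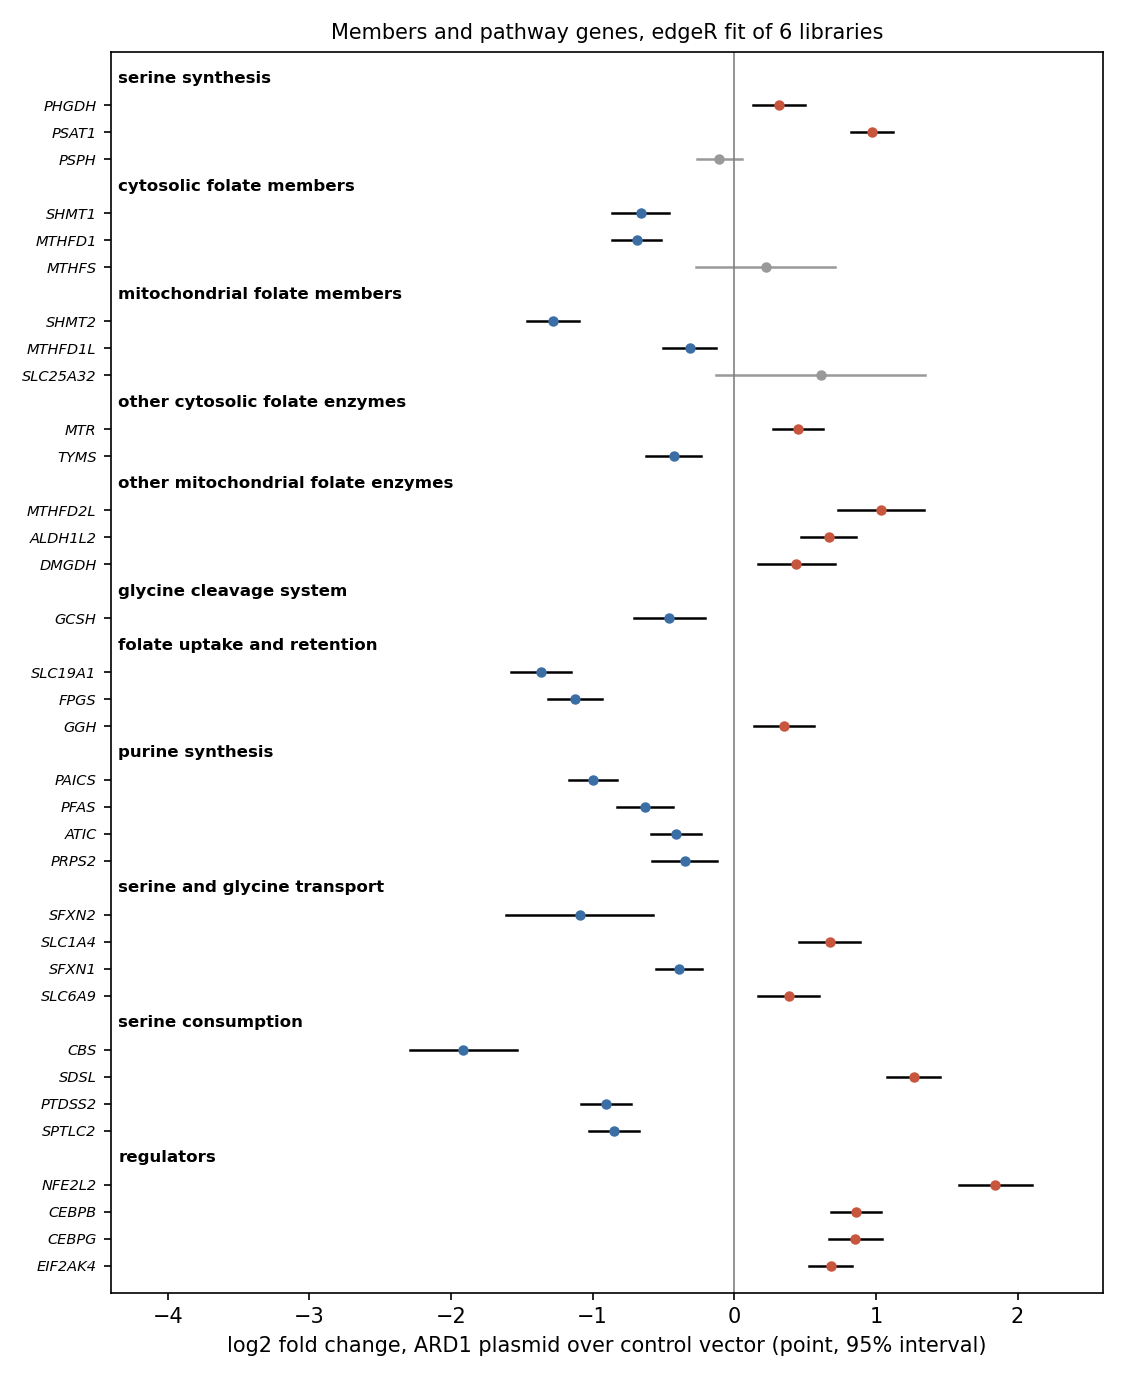
Log2 fold changes of ARD1 plasmid over control vector with 95% intervals from edgeR's fit, for the 9 genes and for the named genes of each related group, with red points for genes called higher, blue for lower and grey for those that did not pass. SHMT2 (-1.28) and PSAT1 (0.97) mark the ends of the range of the 9 genes, and the folate carrier SLC19A1 (-1.36) and CBS (-1.91) lie lower still.

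The 2 arms were compared by ratios of counts within each library. The SHMT2 to SHMT1 ratio was 7.06, 6.48 and 7.35 in the controls and 5.06, 4.10 and 4.50 in the ARD1 libraries. Its mean went from 6.96 ± 0.439 to 4.55 ± 0.481 (SD, n = 3), a difference of -2.41, and the groups did not overlap. The MTHFD1L to MTHFD1 ratio was 0.347, 0.371 and 0.363 in the controls and 0.479, 0.472 and 0.451 in the ARD1 libraries. Its mean went from 0.360 ± 0.0117 to 0.467 ± 0.0148, again without overlap. The pairs therefore shifted in opposite senses, toward the cytosolic isozyme for the hydroxymethyltransferases and toward the mitochondrial enzyme for the formate step. All 4 genes were called lower with TMM scaling, so each shift is between falls of unequal size, with no enzyme gained. Every ratio computed was without overlap, as were 69.6% of all tested genes taken singly. No test was run on these ratios. The widest shift of a ratio among those computed was in SHMT2 to PSAT1, from 2.14 ± 0.261 to 0.450 ± 0.0118, and this pair was chosen after the values were seen.

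**Figure D3:**
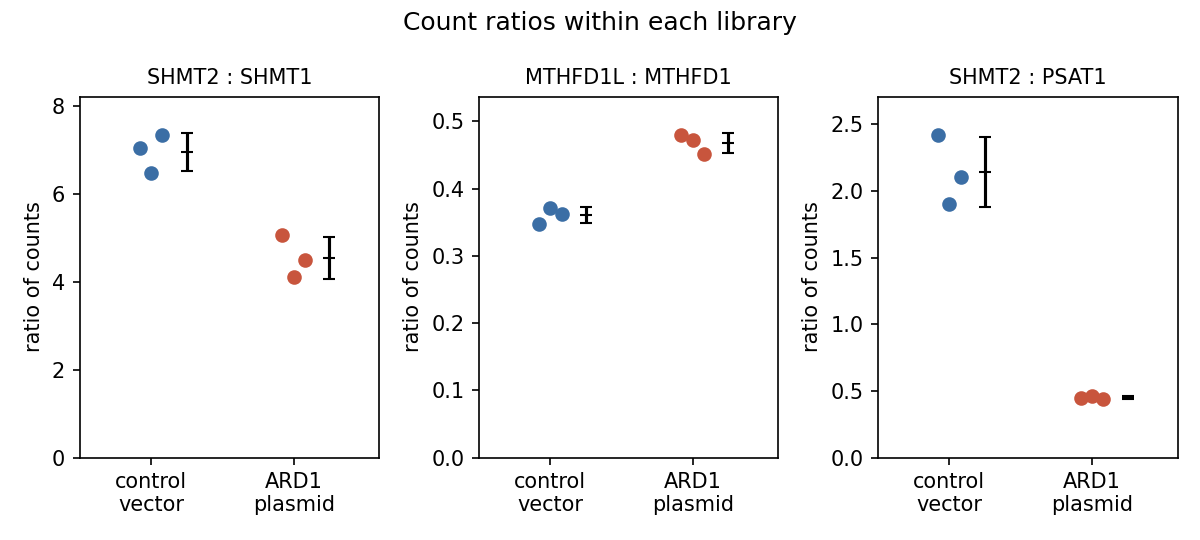
Ratios of raw counts of 2 genes within each library, from 0, with the mean ± SD (n = 3) beside the points. SHMT2 to SHMT1 is lower in the ARD1 libraries (4.10 to 5.06 against 6.48 to 7.35), MTHFD1L to MTHFD1 is higher (0.451 to 0.479 against 0.347 to 0.371), and SHMT2 to PSAT1 is lower.

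Levels of different genes were compared per length, as TPM over the union of annotated exons. In the controls PSAT1 (304 ± 14.4 TPM) and SHMT2 (293 ± 24.4 TPM) led and their libraries overlapped, followed by PSPH (89.3 ± 2.81), PHGDH (41.6 ± 3.65), SHMT1 (28.0 ± 2.29), MTHFD1 (24.2 ± 0.427), MTHFD1L (16.3 ± 0.283), MTHFS (4.06 ± 1.14) and SLC25A32 (0.797 ± 0.355; all SD, n = 3). No other pair of neighbours in that order overlapped. MTHFS and SLC25A32 share 34.0% and 69.7% of their exon bases with other genes on the same strand, so their levels are uncertain. In the ARD1 libraries the order was the same, but PSAT1 (770.2 ± 34.7 TPM) and SHMT2 (157 ± 4.03 TPM) were far apart. SHMT2 made up 91.3% ± 0.512 of the summed hydroxymethyltransferase TPM in the controls and 87.2% ± 1.17 in the ARD1 libraries, so the mitochondrial transcript stayed the larger in each library. MTHFD1L made up 40.2% ± 0.787 and 46.6% ± 0.791 of the summed MTHFD1L and MTHFD1 TPM. With the longest transcript as length, SHMT2 (320.4 TPM) came before PSAT1 (234 TPM) in the controls. There PHGDH (93.0 TPM) came before PSPH (87.3 TPM), but their libraries overlapped (84.7 to 101 and 84.3 to 89.5 TPM). The SHMT2 share with that length was 84.9% in the controls and 78.5% in the ARD1 libraries. TPM carries no TMM factor, so the TPM level of a gene was not compared between groups, only the order and the shares within libraries.

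MTHFD2, the mitochondrial dehydrogenase between SHMT2 and MTHFD1L, was almost uncounted. It had 3, 4 and 2 counts in the controls and 3, 3 and 2 in the ARD1 libraries, at or near the floor of 3 counts, so no fold is given. The names table lists 7 MTHFD2 pseudogenes, and 33.2% of its exon bases overlap SLC4A5 or AC006030.1 on the opposite strand. Its paralogue MTHFD2L, which catalyses the same step, averaged 4.26 ± 0.404 CPM in the controls and rose to 8.74 ± 0.823 CPM (SD, n = 3; a difference of 1.04 on the log2 scale, SE 0.142, edgeR adjusted p = 1.53e-05).

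Of 7 other mitochondrial folate enzymes 6 were tested, 4 rose and 0 fell, with a median log2 fold change of 0.55. The share called was near the 64.6% of all tested genes, of which 32.4% were higher. Besides MTHFD2L these included ALDH1L2, which oxidises formyl-tetrahydrofolate to carbon dioxide (0.67), and DMGDH, which strips a methyl group from dimethylglycine (0.44). ALDH1L2 went from 23.5 ± 1.91 to 37.4 ± 1.96 CPM (SD, n = 3). Without control replicate 3 DMGDH did not pass (0.32, adjusted p = 0.0555; 0.000286 to 0.0555 across alternatives). With the 3 mitochondrial genes above, 4 of 9 tested genes of that arm rose and 2 fell.

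Of 7 other cytosolic folate enzymes 5 were tested, with 2 higher, 2 lower and a median of 0.02. Among all tested genes 64.6% were called. The thymidylate synthase TYMS fell from 31.4 ± 0.499 to 23.3 ± 2.06 CPM (SD, n = 3; -0.43 on the log2 scale). MTR, which passes a methyl group from folate to homocysteine, rose from 35.2 ± 2.65 to 48.1 ± 1.53 CPM (0.45, and 0.29 after correction for GC content and length). With library totals TYMS did not pass (-0.16, adjusted p = 0.119; 2.22e-05 to 0.119 across alternatives), and 46.6% of its exon bases overlap ENOSF1 or TYMSOS on the opposite strand.

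Genes of folate uptake and retention included the largest fall of the folate lists, that of SLC19A1, ahead of SHMT2 (-1.28). SLC19A1, the reduced folate carrier, averaged 35.01 ± 3.17 CPM in the controls and 13.6 ± 0.892 CPM in the ARD1 libraries (SD, n = 3; -1.36 on the log2 scale, SE 0.0998, edgeR adjusted p = 2.08e-08). FPGS, which adds the glutamate tail that keeps folate in the cell, went from 96.9 ± 10.1 to 44.4 ± 3.28 CPM (-1.12). GGH, which removes that tail, rose from 64.1 ± 10.2 to 81.7 ± 1.64 CPM (0.35, and 0.21 without control replicate 1). After correction for GC content and length SLC19A1 came to -0.85 and FPGS to -0.59, both still passing. SHMT2 came to -0.998 there, so the order of these falls depended on the correction. Of 6 genes listed, 3 were tested, with 1 higher and 2 lower, and 64.6% of all tested genes were called in either direction.

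Enzymes of purine synthesis, which takes up formyl-folate at 2 steps, were lower for 4 of 8 tested genes and higher for 0 (median log2 fold change -0.20). That share called was below the 64.6% of all tested genes, of which 32.2% were lower. PAICS went from 199.6 ± 17.1 to 100.02 ± 5.22 CPM (SD, n = 3; -0.996), and PFAS (-0.63), ATIC (-0.41), which performs the second formyl transfer, and PRPS2 (-0.35) were lower. With library totals ATIC (-0.14, adjusted p = 0.0900; 5.76e-07 to 0.0900 across alternatives) and PRPS2 (-0.09, adjusted p = 0.523; 1.66e-05 to 0.523 across alternatives) did not pass, and PFAS was -0.36. Without ARD1 replicate 1 PRPS2 did not pass either (-0.27, adjusted p = 0.0703). In the glycine cleavage system 2 of 4 genes were tested, and GCSH, its lipoyl carrier protein, was lower (-0.46), except with library totals (-0.20, adjusted p = 0.187; 1.32e-05 to 0.187 across alternatives). GLDC and AMT, its other glycine-specific parts, had 9 or fewer counts in each library.

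Transporters of serine and glycine were split, with 4 of 9 higher and 4 lower and a median of 0.11. Of all tested genes, 32.4% were higher and 32.2% lower. SLC1A4, a plasma membrane exchanger of serine and other neutral amino acids, rose from 83.6 ± 10.5 to 133 ± 16.3 CPM (SD, n = 3; 0.67), and the glycine transporter SLC6A9 rose by 0.38 (0.76 after correction for GC content and length). SFXN1, a mitochondrial serine importer, fell from 77.9 ± 3.86 to 59.5 ± 3.32 CPM (-0.39), but did not pass with library totals (-0.13, adjusted p = 0.163; 6.32e-08 to 0.163 across alternatives). Its relative SFXN2 fell from 2.27 ± 0.218 to 1.06 ± 0.0978 CPM (-1.09).

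Enzymes that consume serine were also split, with 3 of 9 higher and 4 lower and a median of -0.58. The share called over all tested genes was 64.6%. CBS, which joins serine to homocysteine on the way to cysteine, went from 35.5 ± 3.68 to 9.47 ± 3.44 CPM (SD, n = 3; -1.91). The phosphatidylserine synthase PTDSS2 (-0.90) and SPTLC2, a subunit of serine palmitoyltransferase (-0.85), were lower. SDSL, a serine dehydratase relative, rose from 15.2 ± 0.470 to 36.7 ± 1.199 CPM (1.27). Over the 50 related genes in these lists, 42 were tested, 14 rose and 17 fell, where 32.4% of all tested genes rose and 32.2% fell. With library totals 23 of the related genes were higher and 10 lower, and DMGDH came to 0.71, MTR to 0.71 and GGH to 0.61.

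Among 10 regulators of these genes 4 were higher, 1 was lower and 5 did not pass, where 64.6% of all tested genes passed. NFE2L2, which encodes NRF2, an activator of serine synthesis genes, rose from 82.5 ± 16.8 to 296 ± 27.4 CPM (SD, n = 3; 1.84). The ATF4 partners CEBPB (125 ± 14.5 to 228 ± 7.73 CPM, 0.86) and CEBPG (75.9 ± 9.33 to 137 ± 4.52 CPM, 0.85) and the amino acid-sensing kinase EIF2AK4 (0.68) rose too. ATF4 itself, named after its values were seen, was at 392, 397 and 402 CPM in the controls and 435, 444 and 416 CPM in the ARD1 libraries. Its groups did not overlap, but it did not pass (log2 fold change 0.12, edgeR adjusted p = 0.109). ATF4 passed as higher under 5 of 16 alternatives, its adjusted p ranging from 3.70e-07 to 0.321, and was 0.41 once trends with GC content and length had been taken out, where CEBPB was 1.46. Transcript levels say nothing of the proteins, since ATF4 is controlled largely at translation.

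The genes most like PSAT1 in centred log2 CPM over the 6 libraries, by root mean square distance among 13757 genes, were MEGF9 (0.0345), ULK1 (0.0374) and ENSG00000291214 (0.0379). Those most like SHMT2 were RABL6 (0.0358), GPRC5C (0.0364) and COL6A1 (0.0378). These distances are descriptions. Within a distance of 0.15 there were 584 genes for PSAT1 and 386 for SHMT2, so many genes shared either profile over 2 groups of libraries.

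**Figure D4:**
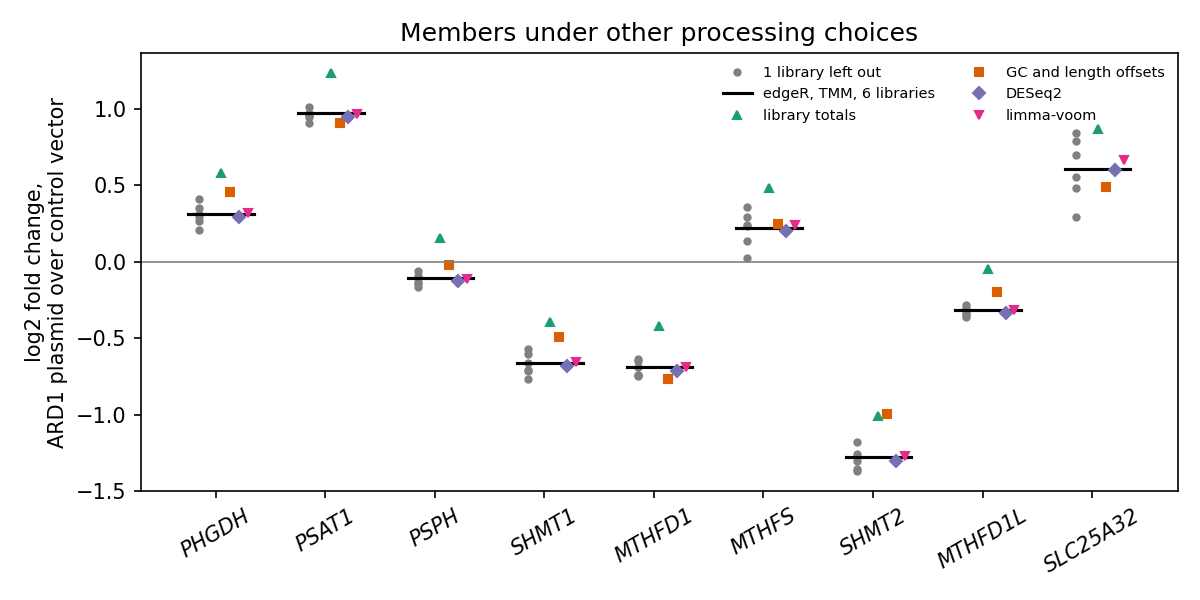
Log2 fold changes of the 9 genes (vertical axis) in the edgeR fit of 6 libraries (black bars) and under other choices, with grey dots for fits that leave out 1 library. PSAT1 and SHMT2 keep their sign and size range (0.91 to 1.24 and -1.37 to -0.996), while MTHFD1L approaches 0 with library totals (-0.05) and PSPH crosses it (0.16).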

How the data were processed

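RNA was extracted with Trizol, depleted of ribosomal RNA and made into directional libraries, per the labels' protocols. Reads were handled with cutadapt 4.6 and STAR 2.7.11b on GRCh38, per the submitters' processing notes. Which program counted the reads, with which strand setting and gene models, is not given in the sources used here. What the authors deposited were raw whole-number counts per Ensembl gene, unnormalised. Groups and replicate numbers came from the sample titles. Depth was 21857327 to 25011357 counts per library. The floor of 3 counts covers counting error only, since counts without molecular identifiers are not independent molecules.

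Genes were kept by filterByExpr (15816 of 25071) and compared with edgeR 4.0.16 (R 4.3.3), using TMM factors, the quasi-likelihood test over 6 libraries and Benjamini-Hochberg adjustment over all tested genes, at 0.05. Standard errors and 95% intervals came from the F statistic and include the scatter between libraries, and since separate cultures are not stated, p-values reflect only the scatter of these libraries, possibly technical. Symbols came from the names table (25052 identifiers matched), and lengths, GC content and exon overlap from GENCODE 29 (23129 matched). Promoter windows came from RefSeq, with 6 of the 9 genes matched. The likeness measure used log2(CPM + 0.1) and genes with a mean of at least 1 CPM.

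The 9 genes and the related lists were chosen with earlier results of these data known. Named genes were NAA10, the 9 genes, MTHFD2, up to 4 non-overlapping changed genes of each list by absolute log2 fold change, and the 3 nearest profiles of the largest rise and fall. Alternatives were RLE and upper-quartile scaling, library totals, DESeq2 1.42.0, limma-voom (limma 3.58.1), no filter and 1 CPM in 3 libraries. Further ones were the replicate block, loess offsets (span 0.4) for GC content and length with and without that block, and each library left out. Some genes that this rule names are not reported here.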

Additional observations from a re-analysis of the deposited data

How the results depend on the processing

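The 9 genes were refitted under 16 alternatives each. Of these 144 values 141 kept their direction and side of the threshold or stayed unpassed. PHGDH lost its call without control replicate 3 and MTHFD1L with library totals, and SLC25A32 gained one with library totals. The count of changed genes among the 9 was 5 to 6 when a library was left out, that among the related genes 28 to 35 and that among all genes 9271 to 10984. When a library was left out, the difference in the SHMT2 to SHMT1 ratio ranged from -2.66 to -2.18 and that in MTHFD1L to MTHFD1 from 0.101 to 0.115. With counts corrected for GC and length the latter was 0.162, against 0.107 uncorrected, and the cause was not tested. With the longest transcript as length, 5 of the 9 genes kept their place in the order of levels in the controls. Library totals gave 68.6% higher among the changed genes of the whole table, against 50.2% with TMM. Of 448 values for the 28 related genes and regulators that the naming rule chose, 441 stayed on their side of the threshold and 7 lost their call.

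Same-numbered libraries did not deviate together: the correlations of deviations from the group means were 0.0168, -0.0356 and 0.0342, and not every library correlated best with its own number. With the replicate block 6 of the 9 genes, 31 related genes and 10293 genes in all changed, as against 6, 31 and 10223 without it, and the block changed no call among the 9. MTHFS, SLC25A32 and MTHFD2 had low counts and overlap other annotated genes, and how far depth or the counting of shared reads limits their values was not tested. A filter of 1 CPM in 3 libraries left all 9 genes tested.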
